A study of Mus musculus with 366 samples.

Results

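The 31 genes described here mark endothelial cells, the cells that line blood vessels, and were taken from 17097 genes that a probe set with 1 gene symbol measured in the mouse aorta. The genes came as a list of names, and each was read from the probe set that had the highest mean of those carrying its symbol. The 366 arrays each held RNA of the aorta of 1 female mouse aged 24 weeks, and they covered strains of the hybrid mouse diversity panel. Every mouse was an F1 animal from a strain of the panel and a C57BL/6J parent that carried transgenes for human APOE-Leiden and CETP, and all were fed chow for 8 weeks and then a Western diet for 16 weeks.

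Both transgenes and the diet were shared by all groups, and no mice without them were measured here. The F1 mice carried at least 1 C57BL/6J copy of each autosomal gene, so a strain difference compares strain alleles in the heterozygous state, and the C57BL/6J group itself was not a hybrid. By their methods the authors cut the aorta from the arch to the middle of the abdomen and cleaned it of fat around the adventitia. The strains were 31 classical inbred strains and, of recombinant inbred strains, 4 BXH, 9 CXB, 21 AXB/BXA and 36 BXD. Between 1 and 8 mice stood for a strain (median 4), and 6 strains had 1 array, 8 had 2 and 87 had 3 or more.

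Values are log2 intensities, on which a difference of 1 is a 2-fold change, and a level of 1 gene was not set against that of another. Of the 31 genes, 29 had a mean above 3.28, the median of the means of all 45141 probe sets, and Flt4 (3.06) and Prox1 (2.73) lay below it. Smooth muscle content was scored on each array as the mean of 14 contractile genes, and fat content as the mean of 9 adipocyte genes. The smooth muscle score ran from 5.16 to 10.1 and the fat score from 8.57 to 9.56. Mice of a strain differed by 0.818 (SD) in the smooth muscle score and by 0.142 in the fat score. The adipocyte hormone gene Adipoq lay between 11.7 and 12.8 and the brown adipocyte gene Ucp1 between 12.3 and 13.2 in all arrays, whereas the smooth muscle myosin gene Myh11 ran from 4.59 to 11.7 and the skeletal actin gene Acta1 from 2.74 to 13.5. In whole aorta, fewer endothelial cells and less RNA of a gene per cell cannot be told apart.

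The arrays were divided into 3 sets, and no label named them. The sets were found after the data had been seen, from gaps in the mean of the 10 probe sets that followed Ramp2 most closely among mice of a strain, so Ramp2, itself 1 of the 31 genes, chose them. Their number was fixed at 3 beforehand, with cuts at the widest gaps that left each set a minimum share of the arrays. That mean ran from 5.286 to 6.387 in set A, from 6.525 to 7.203 in set C and from 7.503 to 8.869 in set B. Set A held 102 arrays of 61 strains, set B 120 arrays of 59 strains and set C 144 arrays of 47 strains, and set C was made up of the mice with the highest numbers in the labels (1009 to 1860, against 1 to 1001 in sets A and B). Of the strains, 56 had mice in several sets and 45 in 1 set. The median of the bacterial spike-in bioB, which is added to every sample, was 8.29 in set A, 8.53 in set B and 6.70 in set C. The median smooth muscle score was 6.87 in set A, 7.51 in set B and 8.32 in set C, and the median over arrays of the mean of the 31 genes was 6.67, 6.74 and 6.95. The median skeletal muscle score was 6.86, 6.74 and 5.16, and the fat score was 9.17, 9.09 and 9.12. Arrays high in hepatocyte genes numbered 21, 10 and 10. The counts of called genes are therefore given over all arrays and again with the sets taken into account.

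Endothelial cells are held together by junctions that set what leaves the blood, and they carry receptors for vascular endothelial growth factors and angiopoietins, which govern the growth and the quiescence of vessels. Their surface keeps blood from clotting through thrombomodulin and the protein C receptor, and they store von Willebrand factor for release on injury. ETS, SOX and GATA transcription factors keep the endothelial programme active, Notch signalling sets arterial identity, and Prox1 sets lymphatic identity. A large artery carries endothelium on its inner face and, in its outer coat and the tissue around it, small vessels and lymphatics.

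All 31 genes differed among strains (limma's F test over 95 strains and 360 arrays, Benjamini-Hochberg over all probe sets), where 77.0% of all probe sets were called. With array set as a term all 31 were called too, against 61.7% of all probe sets. Within single sets the count was 13 in set A (36.1% of all probe sets) and 6 in set B (18.2%), both shares near the background, and 27 in set C (49.3%). The share of variance among strains had a median of 35.5% over the 31 genes, 30.1% over 10355 genes with a mean above the median of all probe sets and 17.9% over all probe sets. It was highest for Tie1 (47.1%), Mmrn2 (46.6%) and Flt1 (45.1%) and lowest for Calcrl (18.9%) and Prox1 (12.6%).

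Tie1 encodes a receptor-like partner of the angiopoietin receptor. Its 4 arrays of AKR/J F1 mice read 4.81, 5.53, 4.73 and 5.08, the highest strain mean (5.04), and its 3 arrays of BXD14/TyJ read 3.56, 3.17 and 3.53, the lowest (3.42). The arrays of these strains did not overlap, and the median strain mean was 3.99. Strains picked as highest and lowest tend to stand apart in any case, so the lack of overlap is no support by itself. AKR/J lay in set C with smooth muscle scores of 7.42 to 9.73, and BXD14/TyJ in sets A and B with scores of 6.34 to 6.70. Mmrn2, a matrix protein laid down by endothelium, was also highest in AKR/J (9.21, 9.72, 9.58 and 9.66) and lowest in the 1 array of BXA25/PgnJ (8.33). Flt1, the receptor that binds VEGF-A without strong signalling, was highest in CE/J (8.16 and 8.69) and lowest in FVB/NJ (6.68, 6.35, 6.48 and 6.64), whose 4 arrays lay in set A. Calcrl ran from a strain mean of 5.20 (CXB8/HiAJ) to 6.37 (AKR/J) and Prox1 from 2.40 (AXB10/PgnJ) to 3.24 (C58/J). The 4 C58/J arrays of Prox1 read 3.96, 3.22, 3.20 and 2.59, so that the highest strain was itself spread over most of the range of strain means. With strain means adjusted for array set, among strains of 3 or more arrays, AKR/J was the highest strain for Tie1 (4.49) and Mmrn2 (9.33), and BXA11/PgnJ was the highest for Flt1 (7.90).

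The same few strains recurred at the ends of the range of the 31 genes. How often they did so over all probe sets was not counted. The 31 genes also vary together, so the counts are not made of separate observations. CE/J, with 2 arrays, had the highest mean of 15 of the 31 genes, among them Cdh5 (7.58), Kdr (8.86), Tek (8.25), Erg (5.48) and Sox18 (8.56), and the lowest mean of Lyve1 (5.93). CXB8/HiAJ, with 4 arrays, had the lowest mean of 8, among them Kdr (6.71), Tek (7.02) and Sox18 (6.59). Both CE/J arrays lay in set C with smooth muscle scores of 9.22 and 8.50, and the CXB8/HiAJ arrays lay in sets A and B with scores of 7.27 to 8.37. Once strain means were adjusted for array set CE/J was highest for 7 of the 31 genes, among them Cdh5 (7.25) and Flt1 (7.97), and the highest strain was BXD1/TyJ for Kdr (8.66) and Sox18 (8.39) and LG/J for Tek (8.03) and Erg (5.37). It was still the lowest for Lyve1 (5.95). CXB8/HiAJ was then lowest for 6 genes, and BXA25/PgnJ, with 1 array, for 7.

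A further question was whether endothelial genes moved with the smooth muscle content of the sample. Across the strain means, 26 of the 31 genes rose with the smooth muscle score and 1 fell (biweight midcorrelation, bicor, Benjamini-Hochberg over all probe sets). The shares of all probe sets called were 23.8% positive and 34.9% negative, and the median bicor was 0.475 over the 31 genes, 0.0236 over the genes above the median and -0.0946 over all probe sets. Genes and score were read from the same arrays. Across strains 5 of 6 brown adipocyte genes and 2 of 10 skeletal muscle genes fell with the score. Within strains 4 of 6 and 7 of 10 did, where 34.3% of all probe sets fell, and none rose in either comparison. The median slope of the skeletal muscle genes within strains was -0.538. The score thus also followed other tissue in the sample, and a relation to it is not one to smooth muscle alone. With strain means adjusted for array set 26 genes rose and 2 fell (17.9% and 27.1% of all probe sets). Within set A 19 rose and 1 fell (14.3% and 16.1%), within set B 14 rose and 1 fell (12.6% and 13%), and within set C 13 rose (7.9% and 7.92%) and Flt4 was not called (-0.231).

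Among mice of the same strain the split was again 26 genes with a positive and 1 with a negative slope on the smooth muscle score (limma with strain as a factor), against 24.2% and 34.3% of all probe sets. The median slope was 0.13 on the log2 scale per unit of score over the 31 genes and -0.013 over all probe sets. With array set as a term there were also 26 positive and 1 negative slopes (19.1% and 26.5%). Within sets the counts parted. Set A gave 17 positive slopes (8.73% positive and 5.86% negative over all probe sets, 27 strains), and set B gave 19 positive and 1 negative (11% and 10.2%, 40 strains). Set C gave 7 positive, those of Calcrl, Erg, Pecam1, Procr, Ramp2, Thbd and Vwf, and 3 negative, those of Cdh5, Robo4 and Dll4 (10.1% and 9.89%, 39 strains). In that set the slope was below 0 for 13 of the 26 genes that rose over all arrays, Cdh5 and Robo4 with a call and Esam, Emcn, Kdr, Flt1, Tie1, Egfl7, Eng, Sox7, Sox17, Sox18 and Notch1 without one. The smooth muscle score varied less among mice of a strain in set C (SD 0.559) than in sets A (0.8) and B (0.869).

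**Figure D1:**
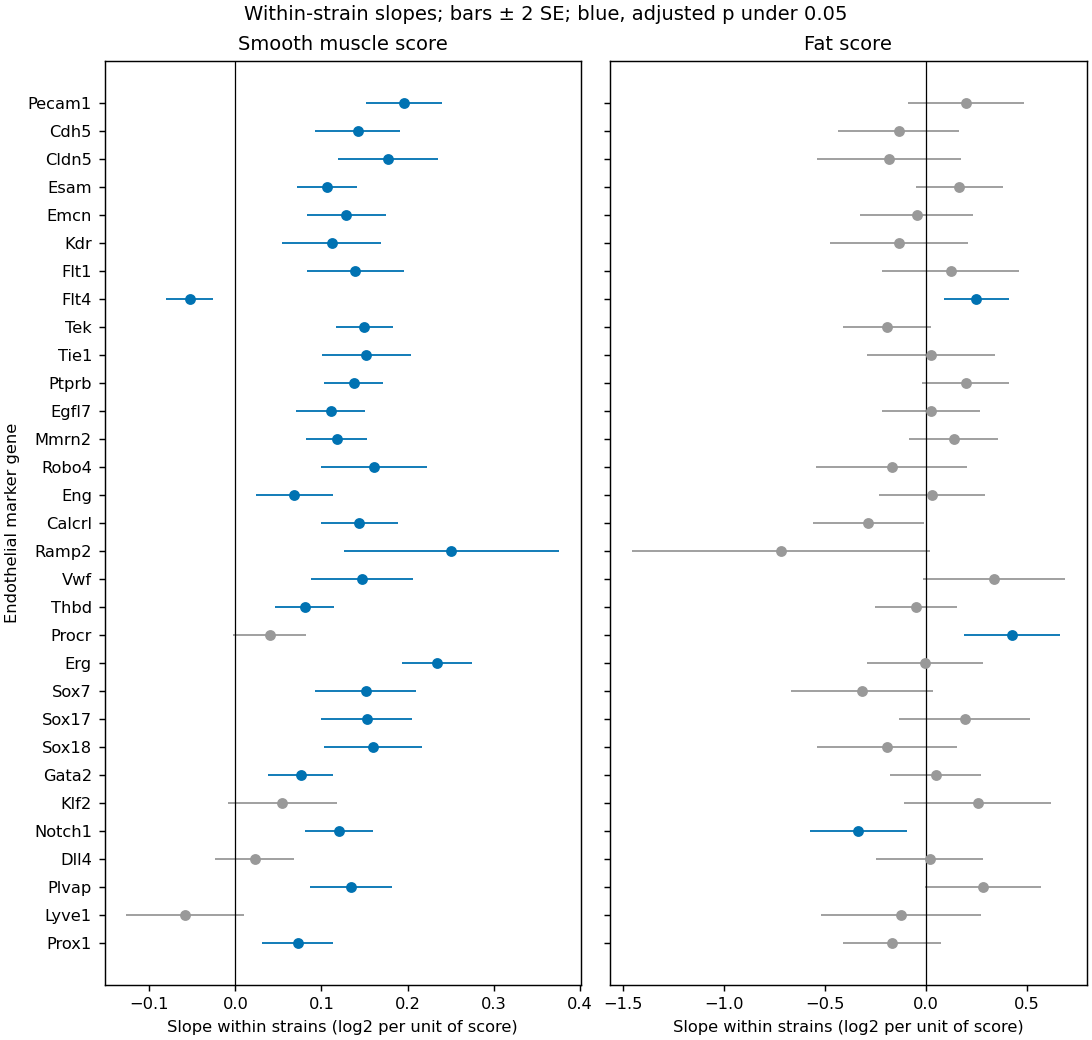
Slopes of the 31 genes on the smooth muscle score (left) and the fat score (right) among mice of the same strain, in log2 units per unit of score, with bars of 2 standard errors. Blue points passed an adjusted p of 0.05: 27 genes for smooth muscle, with Flt4 alone on the negative side, and 3 for fat.

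The junction and surface genes rose with the smooth muscle score in all 5 cases, both across and within strains. These are Pecam1, an adhesion molecule at contacts between endothelial cells, Cdh5, the VE-cadherin of adherens junctions, Cldn5 and Esam of tight junctions, and Emcn, a sialomucin of the luminal face. The bicor across strains lay between 0.524 (Emcn) and 0.585 (Cdh5, adjusted p = 2.01e-09; r 0.595 and rho 0.550, permutation p = 1e-05 each, r 0.563 without the 2 farthest strains). A second, dimmer probe set of Cdh5 (mean 2.90) was called neither across strains (bicor 0.175, adjusted p = 0.119) nor within them. Strain means of Cdh5 ran from 6.00 in FVB/NJ to 7.58 in CE/J. Pecam1 had the largest slope of the 5 within strains (0.20 ± 0.022, SE, adjusted p = 1.44e-15), and its slope was positive in 69 of the 87 strains with 3 or more arrays. For the others single strains were more mixed, with a positive slope in 47 of 87 for Cdh5, 48 for Cldn5, 49 for Esam and 48 for Emcn. In BXD9/TyJ, the strain of 4 or more arrays whose smooth muscle score spread most, the scores were 5.38, 6.12, 8.58 and 8.75. Pecam1 read 6.13, 7.18, 7.66 and 7.09 in those arrays and Cdh5 5.88, 6.13, 7.38 and 7.01. The 2 arrays with high scores lay above both others in Cdh5 but not in Pecam1.

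Cdh5 did not keep its direction in every set of arrays. Its slope was 0.24 ± 0.074 in set A, 0.18 ± 0.048 in set B and -0.15 ± 0.045 in set C, and each passed the test (adjusted p = 0.0188, 0.00455 and 0.0123). Pecam1 was positive in all 3 sets (0.33, 0.18 and 0.16). The difference of the slope between set C and sets A and B, tested as an interaction term in limma, was -0.21 ± 0.055 for Cdh5 (adjusted p = 0.0138) and -0.20 ± 0.050 for Emcn (adjusted p = 0.0107). Over all probe sets 0.58% had a more negative and 1.48% a more positive slope in set C. Across strains within set C, Cdh5 was positive (bicor 0.448, adjusted p = 0.0164).

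Of the receptors for VEGF and angiopoietins and the phosphatase Ptprb, 5 of 6 rose with the smooth muscle score and Flt4 fell. Tek, the angiopoietin receptor Tie2, had the second highest bicor of the 31 genes (0.597, adjusted p = 6.86e-10; by Pearson r was 0.589 and by Spearman rho was 0.615, and permutation p = 1e-05 for both, the smallest that 100000 permutations can give). Without the 2 strains farthest from the median score, MA/MyJ and BXD21/TyJ, its r was 0.578. Ptprb, the phosphatase VE-PTP that acts on Tie2 and VE-cadherin, had a bicor of 0.549, Kdr, the main signalling receptor for VEGF-A, one of 0.517, Flt1 one of 0.475 and Tie1 one of 0.388. Within strains the slope was 0.15 ± 0.017 for Tek (positive in 59 of 87 strains), 0.14 ± 0.017 for Ptprb (60 of 87), 0.11 ± 0.029 for Kdr, 0.14 ± 0.028 for Flt1 and 0.15 ± 0.026 for Tie1. Single strains had a positive slope in 46 of 87 cases for Kdr, 51 for Flt1 and 53 for Tie1. After adjustment for array set the bicor of Tie1 was 0.243 (adjusted p = 0.037), and with array set as a term the slope of Kdr was 0.072 ± 0.030 (adjusted p = 0.0392). Within set C the slopes of Kdr (-0.090), Flt1 (-0.13) and Tie1 (-0.075) were below 0 and not called. In the 4 BXD9/TyJ arrays, in the same order of scores, Tek read 6.96, 7.42, 7.99 and 7.54.

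Flt4, the VEGF-C receptor that the adult keeps mainly on lymphatic endothelium, was the 1 gene that fell with the smooth muscle score across strains (bicor -0.531, adjusted p = 1.09e-07; r -0.516 and rho -0.534, permutation p = 1e-05 each, r -0.498 without the 2 farthest strains). After adjustment for array set its bicor was -0.306 (adjusted p = 0.0068). It was dim on every array (2.56 to 3.79). Its 3 BXH19/TyJ arrays, the highest strain, read 3.30, 3.70 and 3.30, and the 4 arrays of I/LnJ, the lowest, read 2.83, 2.79, 2.68 and 2.56. The 2 groups did not overlap, but they were picked as the highest and the lowest strain, which favours such a gap. The I/LnJ arrays lay in set C and the others in sets A and B, with mean smooth muscle scores of 8.58 and 7.53. Within strains the slope was -0.053 ± 0.014 (adjusted p = 0.000445), and 33 of 87 strains had a positive slope. With array set as a term it was -0.041 ± 0.015 (adjusted p = 0.0158), and within set A, B or C it did not pass (-0.083, -0.037 and -0.017).

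The promoters of 4 of these receptor genes are shown since the genes lie side by side in function while Tek, Tie1 and Flt1 rose and Flt4 fell with the smooth muscle score. RefSeq promoters (build GRCm38.p6, the C57BL/6J reference, 250 bases before to 50 after the start) were at hand for 18 of the 31 genes. Capitals mark 3 motifs, searched on both strands. The first is AGGAAG, which holds a core of ETS sites. The second is ATTGTT, which holds a core of SOX sites. The third is AGATAA, which is read by GATA factors. In these 4 promoters no marked motif overlaps another. The Tek promoter is chr4:94739039-94739338 on the plus strand, Tie1 chr4:118489800-118490099 on the minus strand, Flt1 chr5:147725962-147726261 on the minus strand and Flt4 chr11:49609429-49609728 on the plus strand.
Tek: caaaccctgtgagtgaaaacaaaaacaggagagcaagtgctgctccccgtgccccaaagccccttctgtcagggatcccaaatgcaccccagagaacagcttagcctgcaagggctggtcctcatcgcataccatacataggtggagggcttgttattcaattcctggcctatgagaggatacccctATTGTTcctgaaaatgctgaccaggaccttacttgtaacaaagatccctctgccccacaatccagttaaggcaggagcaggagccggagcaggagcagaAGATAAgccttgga
Tie1: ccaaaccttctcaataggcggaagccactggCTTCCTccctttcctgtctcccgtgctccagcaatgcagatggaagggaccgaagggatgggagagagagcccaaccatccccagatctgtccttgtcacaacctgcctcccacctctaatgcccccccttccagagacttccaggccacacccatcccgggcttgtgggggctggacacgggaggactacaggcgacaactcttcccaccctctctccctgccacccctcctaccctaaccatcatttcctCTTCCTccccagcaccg
Flt1: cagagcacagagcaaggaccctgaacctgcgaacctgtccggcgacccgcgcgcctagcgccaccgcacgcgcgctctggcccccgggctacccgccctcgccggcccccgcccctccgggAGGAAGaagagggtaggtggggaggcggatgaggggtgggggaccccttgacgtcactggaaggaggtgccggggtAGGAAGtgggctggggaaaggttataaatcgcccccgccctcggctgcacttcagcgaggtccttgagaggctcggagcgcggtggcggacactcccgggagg
Flt4: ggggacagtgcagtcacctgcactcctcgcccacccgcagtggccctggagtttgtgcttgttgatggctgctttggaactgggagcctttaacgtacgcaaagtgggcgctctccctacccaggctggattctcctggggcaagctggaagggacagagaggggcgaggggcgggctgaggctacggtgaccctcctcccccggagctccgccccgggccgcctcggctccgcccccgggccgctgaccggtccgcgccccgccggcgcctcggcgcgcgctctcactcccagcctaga
The Tek window holds 1 SOX and 1 GATA motif, the Tie1 and Flt1 windows 2 ETS motifs each, and the Flt4 window none of the 3. The share of all promoters with none of the 3 was not counted. A link between motifs and the direction of a slope was not tested. An ETS motif was found for 8 of the 18 genes, where 38.4% of all 27025 genes with a promoter held one. A SOX motif was found for 4 of 18 (12.2% of all genes) and a GATA motif for 2 of 18 (12.7%).

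**Figure D2:**
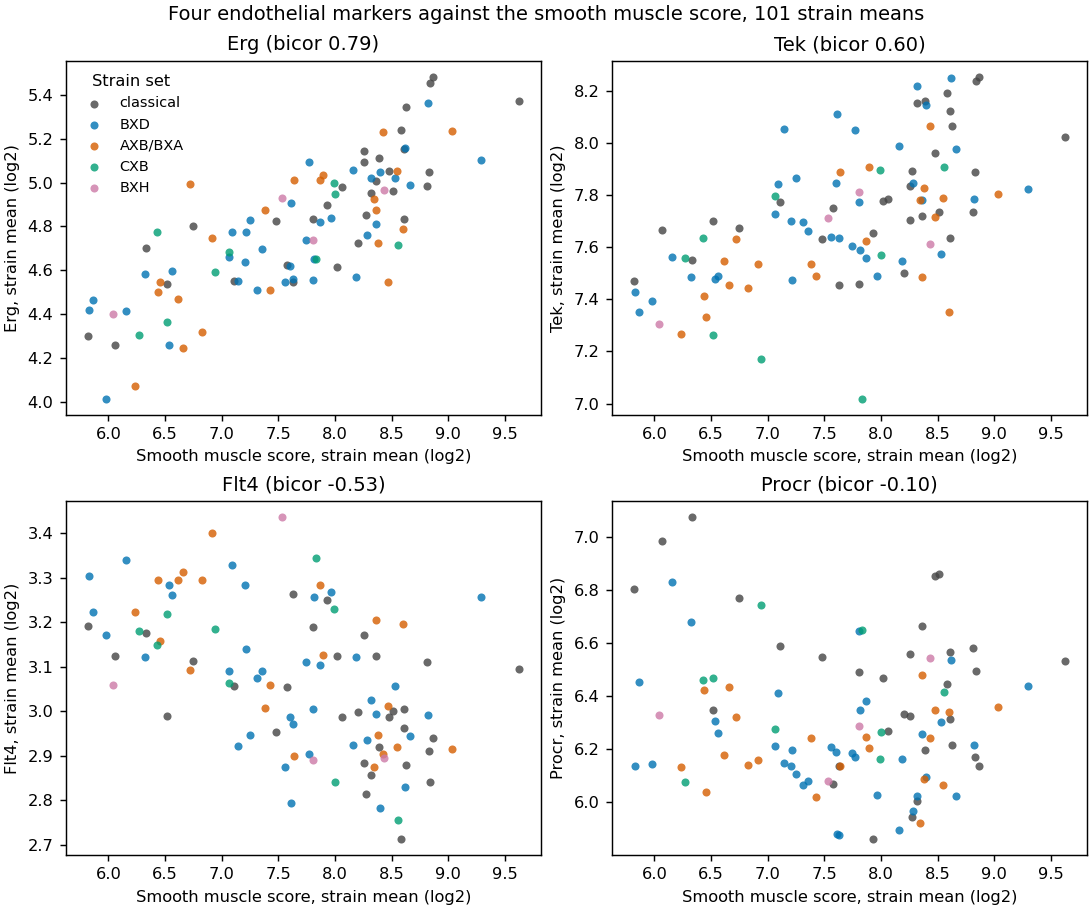
Strain means of Erg, Tek, Flt4 and Procr (log2) against the strain mean of the smooth muscle score (log2), 1 point for each strain, coloured by strain set. Erg and Tek rise along the axis (bicor 0.79 and 0.60), Flt4 falls (-0.53) and Procr lies near 0 (-0.10).

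Guidance, matrix and TGF-beta genes rose in 4 of 4 cases across and within strains. Robo4, a guidance receptor that steadies vessels, had a bicor of 0.572, Egfl7, a secreted matrix protein, one of 0.570, Eng, the co-receptor endoglin, one of 0.475 and Mmrn2 one of 0.398. The slopes within strains were 0.16 ± 0.031 (Robo4), 0.11 ± 0.020 (Egfl7), 0.12 ± 0.018 (Mmrn2) and 0.07 ± 0.022 (Eng, adjusted p = 0.00566). Single strains had a positive slope in 46 of 87 cases for Robo4, 49 for Egfl7, 57 for Mmrn2 and 43 for Eng. Eng did not pass with array set as a term (0.05 ± 0.023, adjusted p = 0.0737). Robo4 turned in set C: its slope was 0.24 ± 0.090 in set A, where it did not pass, 0.19 ± 0.058 in set B and -0.16 ± 0.054 in set C. The difference between set C and the others was -0.23 ± 0.068 (adjusted p = 0.0404).

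Calcrl and Ramp2, which together form the receptor for adrenomedullin, were both called within strains and differed across them. Calcrl rose across strains (bicor 0.490, adjusted p = 1.49e-06) and within them (0.14 ± 0.022). Ramp2 was not called across strains (0.0130, adjusted p = 0.919) and had the largest slope of the 31 genes within strains, 0.25, with the largest error (SE 0.063, adjusted p = 0.000271). Ramp2 is bound up with the array sets, which were cut on its neighbours: the probe set used lay between 8.43 and 10.8 in set A (median 10.2), between 11.2 and 12.97 in set B (median 12.5) and at a median of 11.1 in set C. Sets A and B did not overlap. With strain means adjusted for array set its bicor was 0.539 (adjusted p = 1.13e-07), and with array set as a term its slope was 0.15 ± 0.018 (adjusted p = 9.15e-14). Within sets its slope was 0.13 ± 0.059 in A, which did not pass, 0.19 ± 0.033 in B and 0.13 ± 0.023 in C.

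The 3 probe sets of Ramp2 differed in this. A second probe set followed the first across strains (r = 0.981), and its medians were also far apart between sets. The third had medians of 7.48, 7.33 and 7.53 in sets A, B and C, with overlapping ranges, and had an r of -0.191 with the first (0.0292 after adjustment for array set). Of the remaining genes Tie1 had set medians farthest apart (3.90, 3.71 and 4.49).

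**Figure D3:**
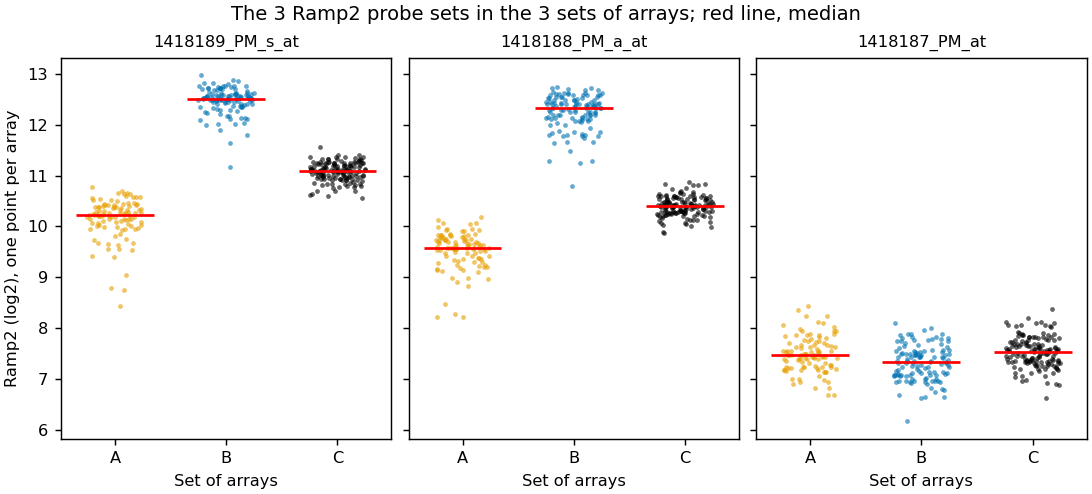
Log2 value of the 3 probe sets of Ramp2 on each of the 366 arrays, by array set, with the median as a red line. In the first and the second, sets A and B do not overlap and the range of set C overlaps with both (medians 10.2, 12.5 and 11.1 for the first). The third lies near 7.5 in each set.

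Of the genes of coagulation control, Vwf, the carrier of factor VIII that tethers platelets, and Thbd, the thrombin receptor thrombomodulin, rose with the smooth muscle score, and Procr, the endothelial protein C receptor, was not called. The bicor across strains was 0.392 for Thbd (adjusted p = 0.000196), 0.261 for Vwf (adjusted p = 0.0166) and -0.0962 for Procr (adjusted p = 0.412). Once strain means were adjusted for array set Thbd had a bicor of 0.238 (adjusted p = 0.0408) and Vwf did not pass (0.210, adjusted p = 0.0745). The slopes within strains were 0.15 ± 0.030 for Vwf, 0.08 ± 0.017 for Thbd and 0.04 ± 0.021 for Procr (adjusted p = 0.0938). Procr passed with array set as a term (0.08 ± 0.022, adjusted p = 0.0016), when set C alone gave 0.20 ± 0.038 and set B -0.012 ± 0.041. Across strains Procr ran from 5.86 in A/J (6.28, 5.48 and 5.83) to 7.07 in 129X1/SvJ (6.99 and 7.16). These groups did not overlap, but they were picked as the lowest and the highest strain.

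Of the transcription factors, 6 of 6 rose across strains and 5 within them. Erg, the ETS factor that maintains endothelial identity, had the highest bicor of the 31 genes (0.786, adjusted p = 1.59e-20; r 0.794 and rho 0.788, permutation p = 1e-05 each, r 0.785 without the 2 farthest strains). Its second probe set, with a mean of 3.12 against 4.80, was not called across strains (bicor 0.159, adjusted p = 0.160) and rose within them (0.12 ± 0.022, adjusted p = 6.16e-07). The values that follow are those of the first. The 3 strains with the lowest smooth muscle scores (MA/MyJ, BXD21/TyJ and BXD69/RwwJ, 5.82 to 5.86) had Erg means of 4.30, 4.42 and 4.46. The 3 with the highest (BXA2/PgnJ, BXD18/TyJ and LG/J, 9.04 to 9.62) had means of 5.23, 5.10 and 5.37. Within strains Erg rose by 0.23 ± 0.020 per unit (adjusted p = 1.76e-23), with a positive slope in 68 of 87 strains, and in the 4 BXD9/TyJ arrays it read 4.21, 4.56, 5.13 and 5.20, in the order of their scores. Its slope passed in each array set (0.28 ± 0.057, 0.17 ± 0.041 and 0.17 ± 0.039), and so did its bicor (0.795, 0.668 and 0.655).

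The SOXF factors Sox7, Sox17 and Sox18 had a bicor of 0.495, 0.459 and 0.4934 and slopes of 0.15 ± 0.029, 0.15 ± 0.027 and 0.16 ± 0.029. Of 87 strains, the slope was positive in 49 for Sox7, 53 for Sox17 and 48 for Sox18. Gata2 had a bicor of 0.413 and a slope of 0.08 ± 0.019 (positive in 50 of 87 strains). Klf2, a factor that laminar flow induces, passed across strains (0.256, adjusted p = 0.0189) but not after adjustment for array set (0.151, adjusted p = 0.215) nor within strains (0.05 ± 0.032, adjusted p = 0.128). Within set C no SOX, GATA or KLF gene passed, with slopes between -0.09 and 0.02.

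Notch1 rose across strains (bicor 0.550) and within them (0.12 ± 0.020, positive in 52 of 87 strains). Its ligand Dll4, made by arterial and tip cells, rose across strains (0.333, adjusted p = 0.00187) and was not called within them (0.02 ± 0.023). In set C the slope of Dll4 was -0.17 ± 0.046 (adjusted p = 0.00247), against 0.11 ± 0.056 in set A and -0.0028 ± 0.042 in set B, and the difference between set C and the others did not pass (-0.14 ± 0.050, adjusted p = 0.144). Plvap, which builds the diaphragms of fenestrae and caveolae, rose in both comparisons (bicor 0.354, slope 0.13 ± 0.024).

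Of the lymphatic genes Lyve1 was called with 1 of its 2 probe sets, and Prox1 was called within strains with its brightest probe set. Lyve1, the hyaluronan receptor of lymphatic endothelium that some tissue macrophages also carry, had a bicor of -0.133 (adjusted p = 0.246) and a slope of -0.06 ± 0.034 (adjusted p = 0.129) with the probe set used. Its second probe set was nearly as bright (mean 6.85 against 6.91) and fell both across strains (bicor -0.369, adjusted p = 0.000502) and within them (-0.092 ± 0.027, adjusted p = 0.0018). With the first, the slope within set B was -0.23 ± 0.077 (adjusted p = 0.0215), and within sets A and C it was -0.04 and 0.16, not called. After adjustment for array set its bicor was -0.292 (adjusted p = 0.0103). Beside it, 11 of 12 macrophage markers fell with the smooth muscle score across strains, where 34.9% of all probe sets fell, and their part in the result was not tested. Prox1, the factor of lymphatic identity, was at the dim end (2.00 to 3.96). Its bicor did not pass (0.190, adjusted p = 0.0887) until array set was taken into account (0.285, adjusted p = 0.0125), and its slope within strains did (0.07 ± 0.021, adjusted p = 0.0015).

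**Figure D4:**
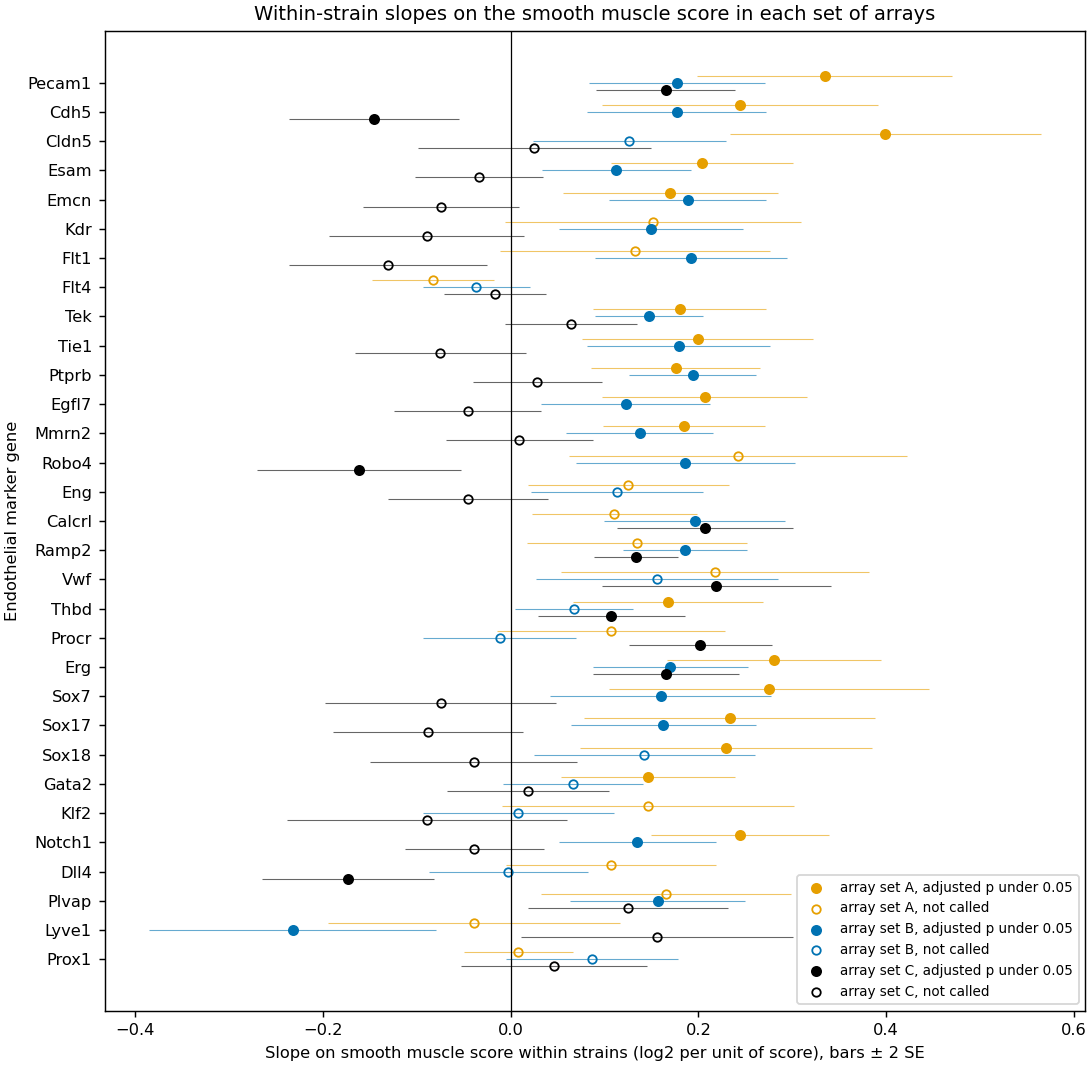
Slopes on the smooth muscle score among mice of the same strain, fitted within array set A, B or C (log2 units per unit of score, bars of 2 standard errors). Filled points passed an adjusted p of 0.05, 17 in set A, 20 in set B and 10 in set C, and Cdh5, Robo4 and Dll4 lie below 0 in set C.

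The fat score followed some of its own genes more than others. Across strains 4 of the 9 were called with it, Lep (bicor 0.822), Plin4 (0.520), Dgat2 (0.518) and Lipe (0.425), and Adipoq (0.202), Retn (0.237), Acvr1c (0.149), Pck1 (0.010) and Thrsp (0.0026) were not, so that between strains it followed Lep, the gene of leptin, most closely and is less a measure of fat as a whole. Within strains all 9 rose with it, with slopes from 0.16 for Adipoq to 4.75 for Lep. Each gene is part of the score. Within strains all 10 skeletal muscle genes fell with the fat score (median slope -8.045), where 11.8% of all probe sets fell. Among mice of a strain the fat score thus also followed skeletal muscle RNA in the sample, and a slope on it is not a measure of fat alone.

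Across strains none of the 31 genes was called by bicor (1.4% of all probe sets positive, 0.762% negative), where at an unadjusted p under 0.05 there were 1 positive and 2 negative. By Pearson's and Spearman's correlation and by limma regression none was called either. The lowest were Cldn5 (-0.241), Ramp2 (-0.216) and Notch1 (-0.156) and the highest Klf2 (0.202), Vwf (0.185) and Lyve1 (0.143). By strain mean Cldn5 ran from 6.89 (BXA11/PgnJ) to 8.78 (C3H/HeJ), Notch1 from 6.87 (AXB10/PgnJ) to 7.89 (CE/J), Klf2 from 7.18 (A/J) to 8.78 (BXD64/RwwJ) and Vwf from 6.66 (BXD34/TyJ) to 8.50 (AKR/J), ranges that the fat score followed weakly. For Cldn5 r was -0.249 and rho -0.234 (permutation p = 0.012 and 0.019), with r -0.257 without the 2 strains farthest from the median fat score, 129X1/SvJ and AXB5/PgnJ, and for Klf2 r was 0.206 and rho 0.213 (permutation p = 0.039 and 0.033).

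Within strains Flt4 and Procr rose with the fat score and Notch1 fell, where 14.9% of all probe sets rose and 11.8% fell. The slope was 0.25 ± 0.080 for Flt4 (adjusted p = 0.011), 0.43 ± 0.119 for Procr (adjusted p = 0.00308) and -0.33 ± 0.120 for Notch1 (adjusted p = 0.0252), whose second probe set did not pass (-0.23, adjusted p = 0.163). Ramp2 had a steeper slope with a larger error and was not called (-0.72 ± 0.369, adjusted p = 0.138). The slopes of single strains were mixed: 52 of 87 were positive for Flt4, 58 for Procr and 45 for Notch1. With array set as a term Flt4 (0.23 ± 0.079) and Procr (0.40 ± 0.118) passed, Notch1 did not (-0.29 ± 0.118, adjusted p = 0.0583) and Ramp2 fell (-0.27 ± 0.105, adjusted p = 0.0434). Within single sets Procr passed in set C (0.58 ± 0.184, adjusted p = 0.0266), while Flt4 (0.24, 0.41 and 0.20 in sets A, B and C) and Notch1 (-0.62, -0.082 and -0.038) did not pass. The background was 4.24% positive and 4.37% negative in set A, 1.28% and 1.11% in set B and 5.67% and 4.38% in set C of all probe sets.

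These calls turned on how fat was scored. With a core of 3 adipocyte genes in place of the 9, 18 genes rose and 4 fell within strains (24.8% and 18.6% of all probe sets), and Procr turned to -0.24. With a brown adipocyte score 3 genes fell, among them Procr (-0.23, adjusted p = 0.0416), and Flt4 did not pass (17.1% of all probe sets rose and 15% fell). With both scores in 1 fit the slope on smooth muscle was positive for 27 genes and negative for 1 (24.0% and 33.5% of all probe sets). The slope on fat was then positive for 6 genes, Pecam1, Flt4, Ptprb, Vwf, Procr and Plvap (12.5% of all probe sets positive and 9.96% negative). The largest of these were Procr (0.46 ± 0.119) and Vwf (0.45 ± 0.169). Leaving out 1 replicate number at a time gave between 0 and 5 positive slopes on fat.

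The slopes were called different between classical and recombinant inbred strains for none of the 31 genes, on smooth muscle (0.0% of all probe sets called) or on fat (0.051%), in limma's interaction test. At an unadjusted p under 0.05 there were 0 genes for smooth muscle, and for fat there were 15 genes with a more positive slope in classical strains and 1 with a more negative one. The share of all probe sets at that unadjusted cut was not counted, and the 31 genes vary together. The 15 are therefore not read as a difference between the classes of strain.

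The 5 progenitors of the recombinant sets were then set side by side, F1 mice of DBA/2J, C3H/HeJ, BALB/cJ and A/J each against C57BL/6J, whose 6 arrays all 4 comparisons shared. The smooth muscle score moved with these comparisons: it was 5.32 to 7.72 (median 6.55) in C57BL/6J, and the medians of the others lay between 7.61 and 8.35. So did the array set, since C57BL/6J had 2 arrays in set A and 4 in set C, DBA/2J 5 in set A, A/J 1 in A and 2 in B, BALB/cJ 1 in A and 3 in B, and C3H/HeJ 1 in A, 1 in B and 6 in C.

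C3H/HeJ, the group with most arrays (8), had the most called genes, with 15 higher and Lyve1 lower than in C57BL/6J (3.91% and 5.0% of all probe sets). Sox17 read 5.13, 4.93, 6.20, 6.66, 6.17 and 6.16 in C57BL/6J and ran from 6.22 to 7.36 (median 6.81) in C3H/HeJ, a difference of 0.92 ± 0.203 (adjusted p = 0.000515), and the groups overlapped. Plvap ran from 5.88 to 6.88 (median 6.54) in C57BL/6J and from 7.07 to 7.84 (median 7.39) in C3H/HeJ without overlap, a difference of 0.89 ± 0.180 (adjusted p = 0.000122). Flt1 (0.86), Robo4 (0.77) and Cldn5 (0.74) came next, and each overlapped between the groups. Flt1 did not pass with its second probe set (0.45, adjusted p = 0.186), nor did Cdh5 (0.24) and Erg (0.25), which were among the 15. The 2 C57BL/6J arrays of set A were the lowest of the 6 in Sox17, Flt1, Robo4 and Cldn5 and also had the lowest smooth muscle scores (5.62 and 5.32). With array set as a term 16 genes were higher and 1 lower (4.22% and 6.07% of all probe sets). With the smooth muscle score as a further term 8 were higher (2.92% of all probe sets higher and 4.86% lower), and Lyve1 did not pass. Within set C alone, with 4 C57BL/6J and 6 C3H/HeJ arrays, 2 were higher, Plvap (0.83) and Eng (0.46), and Lyve1 did not pass (2.61% and 3.97%). Without replicate 1 of each strain 7 were higher and without replicate 2, 6.

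Lyve1 was lower than in C57BL/6J in 3 of the 4 comparisons. It ran from 6.96 to 7.92 (median 7.47) in C57BL/6J and read 6.36, 6.47 and 6.16 in A/J (difference -1.10 ± 0.323, adjusted p = 0.0232), which did not overlap. In BALB/cJ it read 6.29, 6.64, 5.76 and 7.12 (-0.98 ± 0.295, adjusted p = 0.0236) and in C3H/HeJ it ran from 5.98 to 7.17 (-0.85 ± 0.247, adjusted p = 0.0132), and both overlapped with C57BL/6J. With array set and smooth muscle score in the fit none of the 3 passed. With the second probe set of Lyve1 the difference passed in C3H/HeJ (-0.64, adjusted p = 0.0209) and not in A/J (-0.76, adjusted p = 0.062) or BALB/cJ (-0.60, adjusted p = 0.113). Thbd was lower in A/J (7.73, 7.48 and 7.27 against 7.76 to 8.51 in C57BL/6J, -0.61 ± 0.167, adjusted p = 0.0132), without overlap, and it passed with array set and smooth muscle score in the fit (-0.74, adjusted p = 0.0015). The shares of all probe sets called were 1.33% higher and 3.61% lower in A/J and 1.63% and 4.67% in BALB/cJ. Mmrn2 was the 1 gene higher in DBA/2J (9.23, 9.27, 9.27, 9.05 and 8.93 against 8.04 to 8.97, 0.56 ± 0.155, adjusted p = 0.0171; 1.4% and 2.29% of all probe sets), and its groups overlapped by 1 array. With array set as a term the counts grew: in A/J 3 genes were higher and 3 lower (2.84% and 2.87% of all probe sets), in BALB/cJ 6 and 1 (3.6% and 3.43%) and in DBA/2J 6 higher (5.37% and 3.25%). With the smooth muscle score added, 2 genes were lower in A/J (1.52% and 2.98%), 2 were higher and 1 lower in DBA/2J (3.77% and 2.44%), and Lyve1 in BALB/cJ did not pass (0.607% and 1.31%).

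The 31 genes also varied together. Among mice of a strain the 465 pairs had a median r of 0.378, 384 were above 0 and 160 above 0.5, as a description over 360 arrays that share labelling and tissue content. After centring on array sets the median was 0.360 and 157 pairs lay above 0.5. Across strain means the median was 0.449, with 207 pairs above 0.5. Cdh5 and Robo4 were the closest pair within strains (0.842) and Kdr and Sox18 across strains (0.869). Other close pairs within strains were Kdr and Eng (0.824), Cdh5 and Esam (0.815), Sox7 and Sox18 (0.796) and Vwf and Plvap (0.714). Cdh5 (0.629), Mmrn2 (0.618) and Robo4 (0.616) had the highest median r with the other genes. Lyve1 (-0.212), Flt4 (-0.0747) and Procr (-0.0316) had the lowest, and the lowest pair within strains was Egfl7 and Lyve1 (-0.367).

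**Figure D5:**
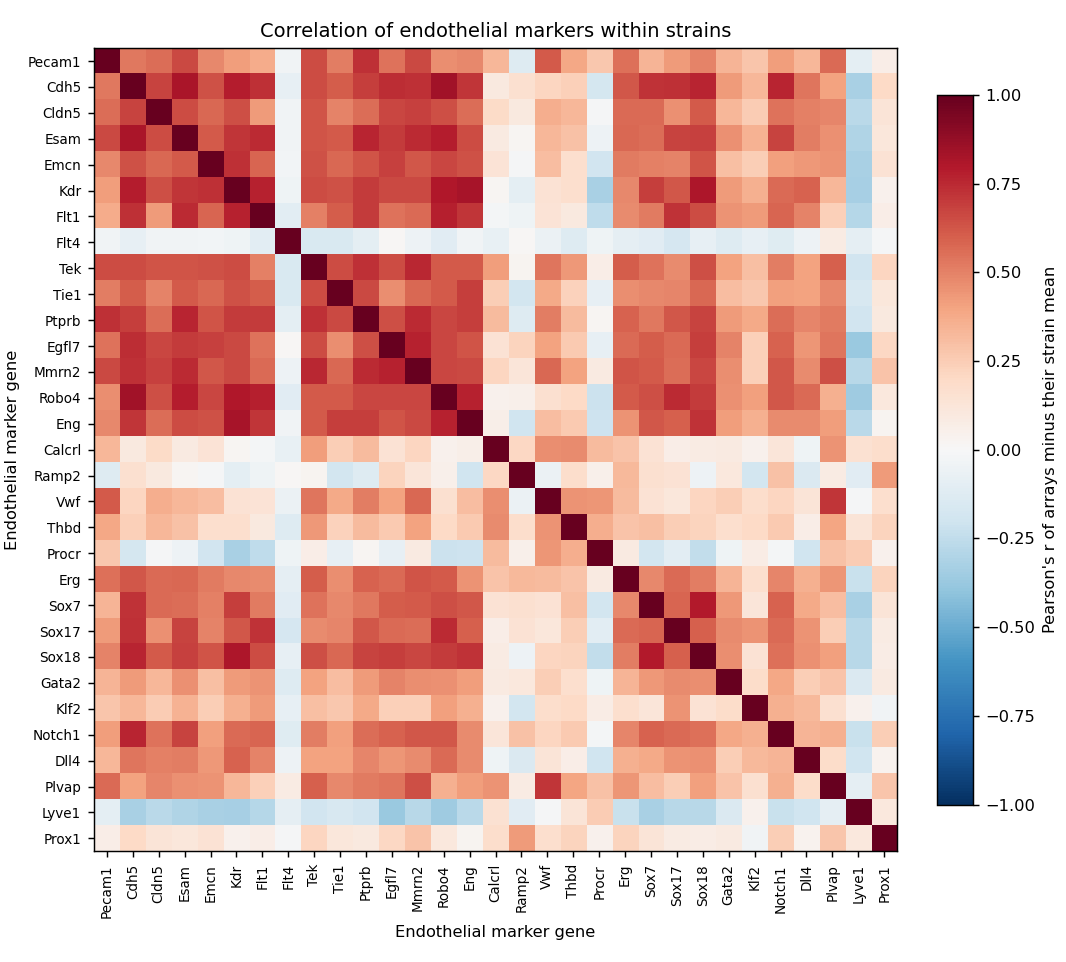
Pearson's r of each pair of the 31 genes over arrays minus their strain mean (360 arrays). Most pairs are positive (red, median 0.378), while the rows of Flt4, Procr and Lyve1 are pale or blue.

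The mean of the 31 genes had an r within strains of 0.479 with the smooth muscle score, -0.00826 with the fat score and 0.725 with a score of 3 pericyte genes, the cells that wrap small vessels. After centring on array sets these were 0.386, 0.0828 and 0.708. With macrophage and skeletal muscle scores it was -0.188 and -0.156. The pericyte genes Rgs5, Kcnj8 and Pdgfrb themselves rose with the smooth muscle score across strains (bicor 0.691, 0.472 and 0.873). Their score thus does not separate small vessels from smooth muscle. Among 10326 further genes with a mean above the median, the 10 whose values within strains lay closest to the mean of the 31 were Arhgap31 (r = 0.865), Cd93 (0.856), Elk3 (0.836), She (0.832), Podxl (0.818), Adgrf5 (0.818), Arap3 (0.810), Itpkb (0.796), Apbb2 (0.796) and Card10 (0.794). After centring on array sets their r lay between 0.762 (Card10) and 0.874 (Cd93).

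For 16 of the 31 genes further probe sets were on the array, 21 in all. The second probe set had an r across strains above 0.5 with the first in 11 of 16 cases (median 0.76). The lowest were Prox1 (0.156), Sox7 (0.334), Erg (0.342), Calcrl (0.403) and Cdh5 (0.461), whose second probe sets had means of 3.12 or less. Lyve1 (0.895), Ptprb (0.930) and Sox17 (0.917) were close between probe sets. With the second probe sets 11 of the 16 genes rose with the smooth muscle score across strains in place of 13, without Erg and Cdh5, and Lyve1 fell. Within strains 10 rose in place of 14: Calcrl, Cdh5, Gata2, Prox1 and Sox7 did not pass and Dll4 did.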

How the data were processed

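Total RNA of the aorta was hybridised to 1 Affymetrix array per mouse (HT_MG-430A in the labels, HT-MG_430 PM in the methods), 366 arrays in all. The authors normalised the intensities with RMA, and the deposited values are log2 intensities of 45141 probe sets, used as deposited with no further scaling and no filter. GCOS and RMA are named in the submitters' processing notes, with no versions. Array medians lay between 3.17 and 3.40, and the number of arrays limits the precision. Gene names came from the platform annotation: 28898 probe sets had 1 symbol, 551 several and 15692 none, and only those with 1 symbol were named.

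Strains were taken from the labels, and a replicate is 1 mouse. The labels do not say how mice were spread over cages or runs. The p-values of limma measure the spread between mice, and those of bicor and of the permutations the spread between strain means. The latter treat strains as independent, although the recombinant inbred strains of a set share their parents, and this was not corrected for. Of 16 smooth muscle genes 14 were matched, without Tagln and Smtn, and of 13 fat genes 9, without Plin1, Cidec, Cfd and Adrb3. Tests were limma's F test of strain, limma slopes on the scores with strain as a factor, limma contrasts of progenitors, and bicor of 101 strain means with its Student p, all with Benjamini-Hochberg adjustment over all probe sets and a threshold of 0.05. Pearson's r and Spearman's rho over strains had two-sided p-values from 100000 permutations, 31 relations with each score. R 4.3.3, limma 3.58.1, Python 3.11.15, numpy 2.4.6, pandas 2.3.3, scipy 1.17.1 and matplotlib 3.10.9 were used, and the fits were tested on simulated data. All 31 genes were named. Fuller values were given for the 3 highest and 2 lowest in variance among strains, the 3 highest and 3 lowest by bicor with each score, any gene alone on 1 side of a count, and at most 5 called genes of each strain comparison. From other lists the highest and lowest gene were named. The promoters shown were picked after the values had been seen. The members and lists were chosen with earlier results of these data known. Alternatives were other correlations, filters, scores, covariates, left-out strain sets and replicate numbers, and, chosen after seeing the data, the array sets.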

Additional observations from a re-analysis of the deposited data

Results flagged for a closer look

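Within the progenitor F1 groups of 4 to 8 mice, 8 of 124 group and gene combinations had 1 array whose gap to the nearest other array was large for the range of its group, and chance flags about 1 in 20. In C57BL/6J the arrays concerned were those of set A, which also had the lowest smooth muscle scores of the group: array 2 read 5.81 for Pecam1 (the others 6.84 to 7.36), 7.14 for Tek (7.65 to 7.95) and 6.92 for Klf2 (7.79 to 8.19), and array 1 read 7.08 for Procr (6.05 to 6.38). Ramp2 read 10.6 in BALB/cJ array 1 (the others 12.5 to 12.8) and 12.7 in C3H/HeJ array 1 (10.6 to 11.3), where the BALB/cJ array was that strain's 1 array of set A and the C3H/HeJ array that strain's 1 array of set B, the sets having been cut on neighbours of Ramp2. Sox7 read 6.02 in BALB/cJ array 4 (5.18 to 5.20), and Pecam1 read 7.58 in DBA/2J array 2 (7.04 to 7.19).

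The slope on the smooth muscle score within strains differed between array set C and sets A and B for 3 of the 31 genes, by limma's interaction test over all probe sets: -0.213 for Cdh5, -0.197 for Emcn and -0.231 for Robo4. Each had a positive slope in sets A and B together (0.172, 0.145 and 0.165).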

How the results depend on the processing

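The counts of the 31 genes were recomputed under other settings, and 261 of the recomputed counts lay within 1.5 times the main count and 99 did not. Shares of all probe sets are given above for some of these settings only. Where none is given, a changed count cannot be told from a shift of all probe sets. The array sets and fits with them or with the skeletal muscle score alone were chosen after seeing the data. The 31 genes differing among strains became 13 within set A and 6 within set B (30 to 31 without a replicate number). Positive slopes on smooth muscle within strains (26) became 17 within set A and 7 within set C (25 to 26 without a replicate number), and the negative one, Flt4, became 0 with probe sets above the median, without BXD strains, with array weights and within set A, and 3 within set C (1 to 1 without a replicate number). Across strains the 26 became 14 within set B and 13 within set C (25 to 27 without a replicate number), and the negative one 0 above the median and within set C and 2 after adjustment for array set.

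Positive slopes on fat (2) became 1 above the median, without AXB/BXA, without classical strains and within set C, 18 with core fat genes, and 0 with the brown adipocyte score and within sets A and B (1 to 2 without a replicate number). The negative one became 0 without BXD strains, with array weights and within sets A, B and C, 2 without arrays high in hepatocyte genes, 7 without classical strains, 4 with core fat genes, and 3 with the brown adipocyte score and with the skeletal muscle score (0 to 2 without a replicate number). Across strains, genes falling with fat rose from 0 to 2 with core fat genes and 5 with the brown adipocyte score (0 to 1 without a replicate number). The share of all probe sets was not counted for these scores across strains.

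With both scores, positive smooth muscle slopes (27) became 7 within set C (25 to 27 without a replicate number), and the negative one 0 above the median, without BXD strains, with array weights and within set A, 2 with core fat genes and 3 within set C. Positive fat slopes (6) became 3 with strains of 3 or more arrays and without AXB/BXA, 1 without hepatocyte-high arrays, without classical strains and with 4 further tissue scores, 2 without BXD strains, with array weights and within set C, 22 with core fat genes and 0 within sets A and B (0 to 5 without a replicate number). Negative ones (0) became 4 with core fat genes and 1 with the brown adipocyte score and with 4 further scores (0 to 1 without a replicate number). The interaction with strain class gave 0 to 1 gene on fat without a replicate number.

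Against C57BL/6J, with array set as a term, 3 genes were higher in A/J, 6 in BALB/cJ and 6 in DBA/2J. With the smooth muscle score added, 0 were lower in BALB/cJ, 8 higher and 0 lower in C3H/HeJ, and 2 higher and 1 lower in DBA/2J. Within set C, 2 were higher and 0 lower in C3H/HeJ. With only progenitors in the fit, 1 was lower in A/J and 0 higher in DBA/2J. Without a replicate number, 0 to 1 were higher and 0 to 2 lower in A/J, 0 to 1 higher and 0 to 1 lower in BALB/cJ, 6 to 18 higher and 0 to 1 lower in C3H/HeJ, and 0 to 2 higher in DBA/2J. With the next probe set of the 16 genes that had one, negative calls on smooth muscle were 1, Lyve1, in place of 0 across strains, within strains and with both scores, positive ones were 11 in place of 13 across strains (without Erg and Cdh5) and 10 in place of 14 within them, and on fat the negative call of Notch1 was lost (0 in place of 1).

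Slopes that turned sign on smooth muscle within set C, alone and with both scores, were those of Cdh5 (-0.146 and -0.147), Esam (-0.0337 and -0.0356), Emcn (-0.0743 and -0.0753), Kdr (-0.0896 and -0.0901), Flt1 (-0.131 and -0.134), Tie1 (-0.0751 and -0.0767), Egfl7 (-0.0458 and -0.0470), Robo4 (-0.161 and -0.163), Eng (-0.0454 and -0.0459), Sox7 (-0.0746 and -0.0745), Sox17 (-0.0883 and -0.0912), Sox18 (-0.0396 and -0.0391) and Notch1 (-0.0387 and -0.0386). Procr turned on smooth muscle with both scores within set B (-0.00898) and with 4 further scores (-0.0143), and on fat within set A (-0.132), with core fat genes (-0.244, with both scores -0.214) and with the brown adipocyte score (-0.226, with both scores -0.195). Notch1 turned on fat with core fat genes (0.0407). The cause of these changes was not tested. No paired analysis was possible because the labels number mice over the whole series and no number is shared between strains. Dim genes such as Flt4 and Prox1 lie near background, where the arrays show little of a true difference.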

Other observations

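Other endothelial genes were followed through 5 further lists. Over all probe sets 23.8% rose and 34.9% fell with the smooth muscle score across strains, and 24.2% rose and 34.3% fell within them. These shares are the background for each list here. Of 17 measured pan-endothelial genes outside the 31, 12 rose with the score across strains (bicor) and 12 within them (limma). Their bicor ran from 0.683 (Cd93) to -0.0456 (Cd34). Arterial genes rose in 5 of 8 cases across strains, from Gja4 (0.704) to Gja5 (-0.0965), and in 6 within strains, where Efnb2, an arterial ephrin, had the steepest slope (0.23). Capillary genes rose in 5 of 8 cases across strains, with Aqp1, a water channel, highest (0.619), and Rgcc fell (-0.320). Venous genes rose in 4 of 5 cases across strains, led by Nr2f2, the factor of venous identity (0.731), and in 5 within them. The bicor of the 5 lymphatic genes ran from -0.282 for Pdpn, podoplanin, which fell, to 0.204 for Reln, which was not called, and within strains 2 of 5 fell with the smooth muscle score (34.3% of all probe sets) and 4 of 5 with the fat score (11.8% of all probe sets). The mean of the 31 genes had an r within strains of 0.929 with the mean of the other pan-endothelial genes, 0.842 with the arterial, 0.781 with the capillary, 0.663 with the venous and -0.118 with the lymphatic mean.

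Of 12 measured ligands of endothelial receptors, 7 rose with the smooth muscle score across strains and 1 fell (23.8% and 34.9% of all probe sets). Angpt2, an angiopoietin that binds the Tek receptor, had a bicor of 0.886, above that of each of the 31 genes, and a slope within strains of 0.42. The other measured angiopoietin, Angpt1, was not called across strains (bicor -0.140, adjusted p = 0.222). Vegfb, a ligand of Flt1, had the lowest bicor (-0.428). Pericyte genes rose in 3 of 3 cases across strains (23.8% of all probe sets), with Pdgfrb highest (0.873).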
